A study of Mus musculus with 8 samples.

Results

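Liver transcripts were compared between 2 libraries of Yap1 hepatocyte-specific knockouts and 2 libraries of their virus-treated controls, 4 of the 8 libraries in the series, which were chosen by their labels. The controls were Yap1 floxed homozygotes that received an adeno-associated virus of serotype 8 (AAV8) carrying GFP, a fluorescent protein. The knockouts received AAV8 carrying iCre, a codon-improved Cre recombinase that cuts out floxed DNA. All mice were C57BL/6 by label and 8 to 10 weeks old, and all had drunk a Lieber-DeCarli liquid diet with 1% ethanol over 2 days and 2% over 10 days. All had also received carbon tetrachloride (CCl4) at 1 µl per g, injected into the peritoneum 2 days before the liver was taken, so the controls were injured livers and not healthy ones. The 4 libraries of the second line, Ctgf floxed homozygotes and Ctgf conditional knockouts given the same diet and toxin, were used only to estimate the spread and as an outside reference. The sources used here do not name the promoter that drives iCre or say whether each library is 1 animal, so the spread behind the p-values may be technical.

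YAP, the product of Yap1, is a transcriptional coactivator. It enters the nucleus and works through the TEAD DNA-binding proteins when the Hippo kinases LATS1 and LATS2 do not phosphorylate it. The kinases STK3 and STK4 act upstream of LATS1 and LATS2. In the liver YAP is known for the control of organ size, for its high activity in bile duct cells and for its activation in hepatocytes after injury. CCl4 is turned into its toxic form by cytochrome P450 enzymes of the hepatocytes around the central vein, so pericentral cells die first and their neighbours then divide.

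The 2 controls differed from each other more than the 2 knockouts did. The counts of a library summed to 30966991 in control 1, 26904021 in control 2, 31054353 in knockout 1 and 30183302 in knockout 2. Levels are given below in CPM, counts per 1000000 counts of the library after TMM scaling, a correction for library composition, and 3 counts corresponded to 0.0830 to 0.123 CPM over all 8 libraries. Control 2 was at least 2-fold above or below control 1 in 17.5% of the 13999 genes tested, whereas the knockouts were that far apart in 1.75%. The livers were alike in 1 check of identity: Alb, the hepatocyte gene for albumin, had 32036 and 55345 CPM in the controls and 29931 and 43384 CPM in the knockouts. The Y-linked gene Eif2s3y was present in every library, at 51.2 and 54.3 CPM in the controls, 62.7 and 75.7 CPM in the knockouts and 60.6 to 75.9 CPM in the Ctgf line.

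Control 2 carried transcripts of digestive enzymes made by the acinar cells of the pancreas. The 28 exocrine pancreas genes in the table, of 30 listed, summed to 18717 CPM in control 2, against 3.65 CPM in control 1, 9.78 and 7.99 CPM in knockouts 1 and 2 and 3.73 to 6.68 CPM in the Ctgf line. Ctrb1, which encodes chymotrypsinogen B, stood at 5454 CPM in control 2 and at 0.0830, 0.0658 and 0.0692 CPM in control 1 and the knockouts, at or under 3 counts. The 18 markers of pancreatic islets summed to 54.1 CPM in control 2 and to 0.249, 1.05 and 2.08 CPM in control 1 and the knockouts, and the insulin gene Ins2 was at 19.9 CPM in control 2 and at 0 in the other 3 Yap-line libraries. Duct markers stood apart in the same library: Krt19, a keratin of duct epithelium, was at 32.6 CPM in control 2 against 1.44 CPM in control 1 and 3.06 and 2.42 CPM in the knockouts. The part that such tissue plays in any other difference of control 2 was not tested. Every comparison is therefore given against each control separately.

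**Figure D1:**
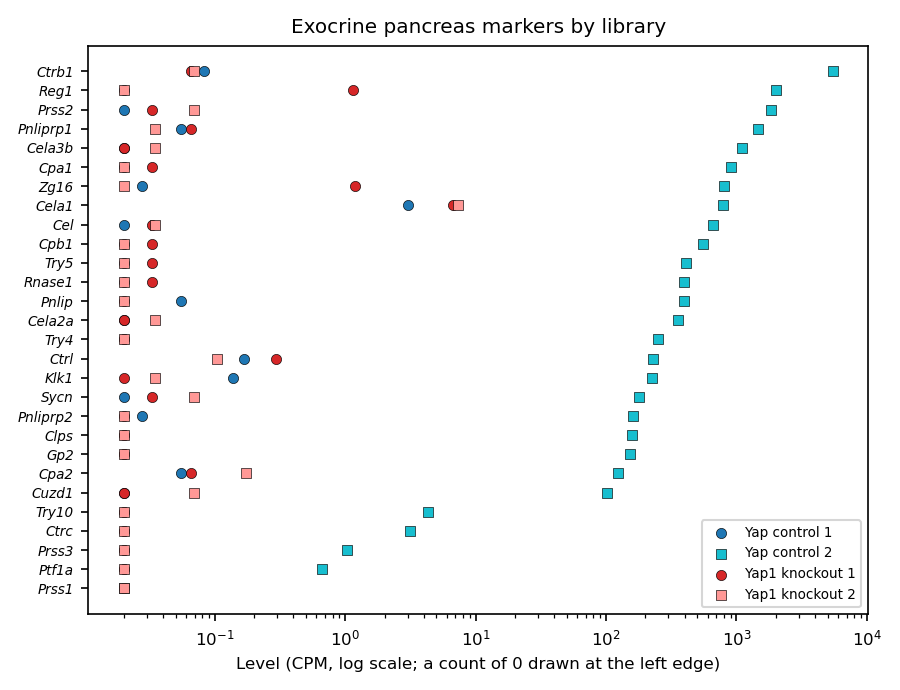
Level of each exocrine pancreas marker in the 4 Yap-line libraries, in CPM on a log axis; each point is 1 library, and counts of 0 are drawn at the left edge, where points can cover each other. In all but 1 of the 28 genes control 2 is the highest of the 4 libraries, with Ctrb1 at 5454 CPM; Prss1 was at 0 in all 4.

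Yap1 lies on GRCm38 chromosome 9, 7931999 to 8004596, minus strand. Its level was 107 and 76.1 CPM in the controls and 31.01 and 32.5 CPM in the knockouts. Both knockouts were below both controls, the 2 control values were further apart than the 2 knockout values, and the 4 Ctgf-line libraries held 132 to 139.5 CPM. The log2 fold change was -1.75 (SE 0.130, edgeR adjusted p = 0.0345) against control 1 and -1.29 (SE 0.129, adjusted p = 0.00638) against control 2, and -1.53 (SE 0.215, adjusted p = 0.0557) against both controls together, just outside the threshold of 0.05. Whole liver was sequenced, so transcript of all its cell types is in the measure. Fewer cells of a type and less RNA per cell cannot be told apart in these libraries, here and in all that follows.

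With both controls together, 4 of 13999 genes passed the threshold by the quasi-likelihood F test of edgeR (Benjamini-Hochberg adjusted p), 3 higher (0.0214% of the genes tested) and 1 lower (0.00714%) in the knockouts. The unadjusted p was under 0.05 for 929 higher and 999 lower genes, and DESeq2 called 271 higher (1.94%) and 243 lower (1.74%). Against control 1 alone, 22 of 14309 genes were higher (0.154%) and 18 lower (0.126%). Against control 2 alone, 1788 of 14457 genes were higher (12.4%) and 1940 lower (13.4%). A single control was assumed to vary like the other groups. The Yap controls were at least 2-fold apart in 17.5% of genes, however, and the Ctgf controls in 0.464%. The SE and adjusted p against a single control leave out that spread between the Yap controls, so they can look firmer than they are. The calls in each gene list below stand beside these shares of all genes. Against both controls the number of calls was 0 without either knockout or either library labelled Ctgf knockout, and against control 1 alone it was 0 without either knockout or either Ctgf control. Against control 1 it was 495 higher and 386 lower without the library labelled Ctgf knockout 1 and 530 higher and 408 lower without the library labelled Ctgf knockout 2. Against control 2 the count was 23 higher and 48 lower without knockout 1, 498 and 368 without knockout 2, 639 higher and 632 to 635 lower without either Ctgf control, and 3178 to 3181 higher and 3212 to 3218 lower without either library labelled Ctgf knockout. Calls therefore turned on which libraries entered the fit, and the levels in each library are given beside them.

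A second reading of the data needs no estimate of the spread. In 3310 genes (23.6%) both knockouts were above both controls and in 2906 (20.8%) below both, with no test. Counts of this kind in the gene lists below stand beside these shares. With 2 libraries a group, some genes take such an order without any difference between the groups, and their number was not estimated. In 211 genes (1.51%) the lower knockout was at least 2-fold above the higher control, and in 149 (1.06%) the higher knockout was at least 2-fold below the lower control. Of these, 174 and 111 genes (1.24% and 0.793%) also lay outside all 4 Ctgf-line libraries.

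The genes that passed against both controls were Cd28, Adm and Ndufa4l2, which rose, and Akr1c20, which fell. Cd28 (chromosome 1, 60716800 to 60773359, plus strand), a receptor that gives T cells their co-stimulatory signal, was found at 0.525 and 0.823 CPM in the controls and 25.5 and 16.9 CPM in the knockouts. It was at 0.711 to 0.816 CPM in the Ctgf line, so the 2 knockouts were alone among 8 libraries in holding more than 1 CPM of it. The log2 fold change was 5.32 (SE 0.424, edgeR adjusted p = 0.0345) against control 1 and 4.65 (SE 0.409, adjusted p = 0.00565) against control 2. Other T cell genes were not higher as a group. Of 23 tested T and NK cell markers, Cd28 among them, 1 lay above both controls and 6 below, beside 23.6% and 20.8% of all genes. The T cell receptor subunit Cd3e was at 0.553 and 0.535 CPM in the controls and 0.395 and 0.208 CPM in the knockouts. Lck, the kinase of the T cell receptor, was measured at 1.85 and 1.56 CPM in the controls and 0.658 and 0.831 CPM in the knockouts, and Nkg7, a granule protein of cytotoxic cells, at 0.249 and 0.247 CPM against 0.0658 and 0 CPM, where 1 of the knockouts had no count. Of the 11 tested genes of the CD28 family and its ligands, Cd28 was the one that lay above both controls, and the ligand gene Cd86 was at 17.3 and 8.89 CPM in the controls and 13.2 and 8.51 CPM in the knockouts.

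Akr1c20 (chromosome 13, 4486849 to 4523345, minus strand), an aldo-keto reductase of steroid metabolism, had 20.5 and 22.4 CPM in the controls and 2.14 and 1.49 CPM in the knockouts, with a log2 fold change of -3.49 (SE 0.274, edgeR adjusted p = 0.0345) against control 1 and -3.65 (SE 0.272, adjusted p = 0.00372) against control 2. Akr1c6, its neighbour on chromosome 13 (4434306 to 4457877, plus strand), which acts on steroids as well, was found at 91.98 and 350.2 CPM in the controls and 21.8 and 12.1 CPM in the knockouts. Both genes were lower in each knockout than in any of the other 6 libraries. Reads that match both of these related genes could have been dropped or misplaced in the counting, so the values of each are uncertain.

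Of the genes at least 2-fold above both controls, those with the widest gap between knockouts and controls are named here; the choice fixes that their groups do not overlap. Fgf23, a hormone of phosphate balance that bone normally makes, was measured at 0.885 and 0.0823 CPM in the controls, 1 of them under 3 counts, and 16.8 and 12.1 CPM in the knockouts. Nos2, the inducible nitric oxide synthase, was at 0.332 and 0.535 CPM in the controls and 16.8 and 5.85 CPM in the knockouts. Both genes had their 2 knockouts above all 6 other libraries. Ffar4, a receptor for long-chain fatty acids, had 0.387 and 0.206 CPM in the controls and 4.90 and 6.16 CPM in the knockouts. A2m, the protease inhibitor alpha-2-macroglobulin, was at 1.19 and 0.864 CPM in the controls and 54.3 and 12.2 CPM in the knockouts, but it ranged over 0.477 to 31.5 CPM in the Ctgf line and so did not separate the knockouts from that line. The remaining members were the crystallin gene Crybb3 (1.30 and 1.40 CPM in the controls, 15.8 and 11.1 CPM in the knockouts), the retinol dehydrogenase Rdh12, the synaptic scaffold gene Dlgap2 and the neutrophil granule gene Ngp, beside Cd28, Adm and Ndufa4l2. Against control 2 alone, Nos2 had a log2 fold change of 4.37 (edgeR adjusted p = 0.0257), and against control 1 alone it was 5.08 (adjusted p = 0.120).

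The 12 genes with the widest gap below both controls were chosen in the same way and included Akr1c20 and Akr1c6. Notum (chromosome 11, 120653788 to 120661175, minus strand), a secreted lipase that inactivates Wnt ligands and is itself induced by Wnt signals near the central vein, was found at 6.44 and 20.6 CPM in the controls and 1.42 and 0.692 CPM in the knockouts. Ppp1r3c, a subunit that brings protein phosphatase to glycogen, was measured at 11.1 and 13.6 CPM in the controls and 2.93 and 2.18 CPM in the knockouts. Its level was highest, 32.4 to 52.1 CPM, in the Ctgf line, so its controls were already lower than that line. Fmo1, a flavin monooxygenase of drug oxidation, was at 74.4 and 122 CPM in the controls and 19.2 and 11.4 CPM in the knockouts, and Ephx1, the microsomal epoxide hydrolase, at 240.5 and 296 CPM and 61.7 and 69.7 CPM. The taurine synthesis enzyme Csad had 218 and 307 CPM in the controls and 58.2 and 29.4 CPM in the knockouts, and sorbitol dehydrogenase, Sord, at 261 and 505 CPM and 70.6 and 59.7 CPM. In all of these the 2 knockouts were below the other 6 libraries. The transcription factor gene Cux2 was found at 6.25 and 5.27 CPM in the controls and 0.592 and 1.07 CPM in the knockouts, the acyl-CoA thioesterase Acot1 at 19.2 and 76.7 CPM and 5.46 and 4.19 CPM, and Cyp2c44 at 136 and 101 CPM and 25.5 and 29.5 CPM; Acot1 and Cyp2c44 have close relatives, so their counts are uncertain. Tmie, known as a part of the hair cell transduction channel, was at 8.99 and 13.99 CPM and 2.57 and 2.11 CPM. The log2 fold change of Notum was -2.602 against control 1 (edgeR adjusted p = 0.233) and -4.31 against control 2 (adjusted p = 0.0158), and that of Ppp1r3c -2.12 against control 1 (edgeR adjusted p = 0.0688) and -2.44 against control 2 (adjusted p = 0.00846).

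**Figure D2:**
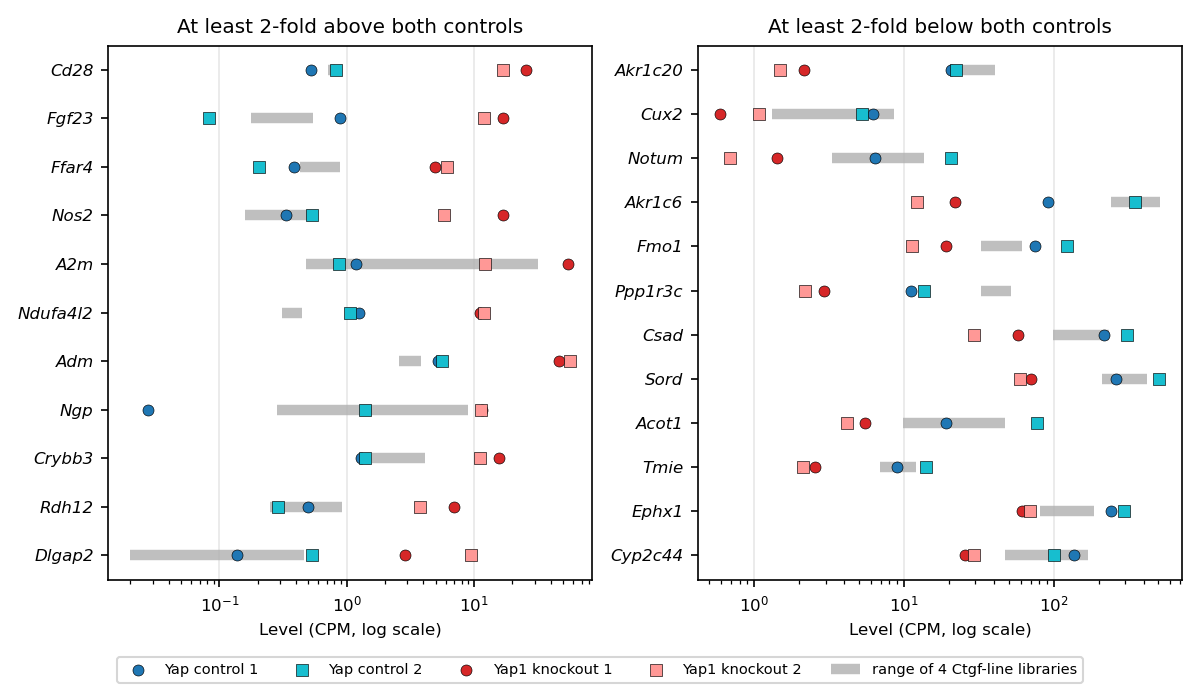
Level in CPM, on log axes, of the genes with the widest gap between both knockouts and both controls (11 above and 12 below); each point is 1 Yap-line library and the grey bar spans the 4 Ctgf-line libraries. In each gene the 2 knockouts lie at least 2-fold outside both controls, as the choice of genes requires, and in A2m the grey bar reaches past 1 of the knockouts.

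Most of the listed genes that cells induce when oxygen is short lay above both controls. Cells sense oxygen through prolyl hydroxylases that mark the HIF transcription factors for destruction, and HIF binds DNA at the core letters ACGTG. Of 19 tested genes of the list of hypoxia signals and sensors, 13 lay above both controls and 0 below, beside 23.6% and 20.8% of all genes, and 8 were at least 2-fold above. The median log2 fold change of the list was 0.75 against control 1 and 1.21 against control 2, where it was 0.02 over all genes for each control. Against control 1, 3 members passed and rose (Adm, Ndufa4l2 and Ddit4), and against control 2, 9 were higher and 2 lower.

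Adm (chromosome 7, 110627661 to 110629820, plus strand), the gene for the vasodilator peptide adrenomedullin, was measured at 5.20 and 5.56 CPM in the controls, 46.7 and 57.03 CPM in the knockouts and 2.55 to 3.84 CPM in the Ctgf line. Its log2 fold change was 3.32 (SE 0.264, edgeR adjusted p = 0.0345) against control 1 and 3.19 (SE 0.266, adjusted p = 0.00523) against control 2. Ndufa4l2 (chromosome 10, 127514967 to 127517154, plus strand), a mitochondrial protein that lowers respiration in low oxygen, had 1.24 and 1.07 CPM in the controls and 11.2 and 12.1 CPM in the knockouts, with a log2 fold change of 3.22 (SE 0.323, edgeR adjusted p = 0.0396) against control 1 and 3.41 (SE 0.337, adjusted p = 0.00633) against control 2. For these 2 genes both controls gave nearly the same value. Ddit4, an inhibitor of mTOR signalling, was found at 17.1 and 24.8 CPM in the controls and 65.5 and 89.6 CPM in the knockouts (log2 fold change 2.18 against control 1, edgeR adjusted p = 0.0464, and 1.62 against control 2, adjusted p = 0.0106). Vegfa, the growth factor of vessels, was at 116 and 65.4 CPM in the controls and 260.00 and 245 CPM in the knockouts and did not pass against control 1 (1.12, edgeR adjusted p = 0.06996). The oxygen sensor Egln3 was measured at 17.1 and 15.4 CPM in the controls and 45.9 and 62.8 CPM in the knockouts, and Bnip3, a mitophagy receptor, at 31.5 and 33.1 CPM and 91.4 and 92.6 CPM. Hif1a itself, which is not in the list and was looked up after the values were seen, had 141 and 56.2 CPM in the controls and 227 and 246 CPM in the knockouts. The 2 members that fell against control 2 were the carbonic anhydrases Car9, at 0.415 and 3.58 CPM in the controls and 0.724 and 0.484 CPM in the knockouts, and Car12, at 0.277 and 1.56 CPM and 0.362 and 0.208 CPM. In both, control 2 stood above the other 3 libraries and control 1 did not.

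Glycolysis, the path from glucose to pyruvate, stood higher in the knockouts as well. Of its 21 tested genes 19 lay above both controls and 2 below, and the median log2 fold change was 0.87 against control 1 and 0.92 against control 2. By edgeR 0 members passed against control 1, where 13 were higher and 0 lower at an unadjusted p under 0.05 and DESeq2 called 9, all higher. Against control 2, 10 were higher and 0 lower. Slc2a1, the glucose transporter GLUT1, was found at 39.2 and 36.3 CPM in the controls and 146 and 165 CPM in the knockouts, with log2 fold changes of 1.99 against control 1 (edgeR adjusted p = 0.0784) and 2.07 against control 2 (adjusted p = 0.0109). Slc2a3, the transporter GLUT3, was at 3.98 and 2.63 CPM in the controls and 28.6 and 17.7 CPM in the knockouts. Pfkp, the platelet-type phosphofructokinase, was at 19.8 and 13.7 CPM and 72.2 and 80.9 CPM, and Slc16a3, which exports lactate, at 25.6 and 7.94 CPM and 73.8 and 52.1 CPM. The members below both controls were Ldha, the lactate dehydrogenase subunit, at 1464 and 1885 CPM in the controls and 1303 and 1274 CPM in the knockouts, and the neuronal-type enolase Eno2. Of the 20 listed genes of gluconeogenesis and glycogen, Slc2a2 and Fbp1 among them, 5 lay above both controls and 6 below. The median log2 fold change of that list was -0.03 against control 1 and -0.12 against control 2. Slc2a2, the hepatocyte transporter GLUT2, went the other way from Slc2a1, with 109 and 122 CPM in the controls and 26.4 and 40.6 CPM in the knockouts (log2 fold change -1.70 against control 1, edgeR adjusted p = 0.0794, and -1.89 against control 2, adjusted p = 0.0105). Fbp1, a gluconeogenic enzyme, rose against each control, from 295 and 447 CPM to 1447 and 1552 CPM (log2 fold change 2.35 against control 1, edgeR adjusted p = 0.0396, and 1.72 against control 2, adjusted p = 0.00874).

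The 250 bases before the start of 4 genes are shown because they hold, or lack, the letters of the factors named here; the sequences are RefSeq's, on GRCm38.p6, each written 5′ to 3′ on the strand of its gene. Capitals mark ACGTG, the HIF core, in Slc2a1 (chr4:119108495-119108744, plus strand) and Ddit4 (chr10:59951771-59952020, minus strand), and CATTCC, the TEAD core GGAATG read on the other strand, in Ajuba (chr14:54577662-54577911, minus strand). Adm (chr7:110627407-110627656, plus strand) has neither.
Slc2a1: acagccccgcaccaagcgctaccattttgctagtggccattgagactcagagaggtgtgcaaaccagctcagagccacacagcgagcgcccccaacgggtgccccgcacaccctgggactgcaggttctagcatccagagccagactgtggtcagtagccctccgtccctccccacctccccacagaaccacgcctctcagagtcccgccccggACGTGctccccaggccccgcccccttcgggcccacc
Ddit4: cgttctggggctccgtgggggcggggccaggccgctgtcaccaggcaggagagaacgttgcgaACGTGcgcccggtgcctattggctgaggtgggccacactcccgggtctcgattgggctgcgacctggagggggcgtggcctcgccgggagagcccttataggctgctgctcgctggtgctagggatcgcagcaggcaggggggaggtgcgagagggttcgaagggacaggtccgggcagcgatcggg
Adm: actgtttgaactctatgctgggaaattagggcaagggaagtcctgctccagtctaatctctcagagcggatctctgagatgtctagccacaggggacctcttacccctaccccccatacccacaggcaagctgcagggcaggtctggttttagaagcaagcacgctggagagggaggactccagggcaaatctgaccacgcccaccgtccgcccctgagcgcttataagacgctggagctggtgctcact
Ajuba: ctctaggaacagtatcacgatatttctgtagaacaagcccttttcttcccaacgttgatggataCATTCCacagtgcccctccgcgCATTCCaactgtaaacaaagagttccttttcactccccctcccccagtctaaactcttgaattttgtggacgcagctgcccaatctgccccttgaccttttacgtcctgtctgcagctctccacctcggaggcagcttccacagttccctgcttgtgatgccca

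In Slc2a1 the match begins 36 bases before the start and in Ddit4 187 bases before it. On either strand, ACGTG was in 50% of the 22 windows of the hypoxia list and in 36.7% of the 30 windows of the glycolysis list, against 20.5% of the 13794 windows of all genes tested. In the 188 windows of the genes at least 2-fold above both controls the share was 17.02%, which is near that of all genes. A match describes letters, not a bound site.

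Cholesterol synthesis had the highest median of the metabolic lists against control 1, and it was the list with most calls there. The path runs from acetyl-CoA through mevalonate and squalene to cholesterol, and the SREBP2 factor switches its genes on when sterols are low. Of its 25 genes 22 lay above both controls and 0 below, and 10 were at least 2-fold above. Against control 1, 7 genes rose, Hmgcs1, Idi1, Fdft1, Sqle, Msmo1 and Dhcr7 among them, and 0 fell, and against control 2, 14 rose and 0 fell. The median log2 fold change was 1.88 against control 1 and 0.96 against control 2, and in 21 of the 25 genes control 2 was the higher of the 2 controls.

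Hmgcs1, a synthase at the entry of the path, was at 117 and 228 CPM in the controls and 649.8 and 751 CPM in the knockouts. Idi1, the isopentenyl diphosphate isomerase, rose from 0.774 and 1.32 CPM to 6.35 and 6.78 CPM (log2 fold change 3.08 against control 1, edgeR adjusted p = 0.0414, and 2.29 against control 2, adjusted p = 0.00967). In both genes the 2 knockouts were above all 6 other libraries. Sqle, which makes squalene epoxide, had 53.2 and 111 CPM in the controls and 254 and 316 CPM in the knockouts, and Hsd17b7, a later reductase of the path, at 60.5 and 59.4 CPM and 199.6 and 340.5 CPM. Srebf2, the gene for SREBP2, was at 78.4 and 70.01 CPM in the controls and 101 and 97.4 CPM in the knockouts. Of 20 fatty acid synthesis genes 5 lay above both controls and 4 below, shares near the 23.6% and 20.8% of all genes, with Acss2, which makes acetyl-CoA, at 17.2 and 26.5 CPM in the controls and 47.6 and 68.4 CPM in the knockouts, and Fasn, the fatty acid synthase, at 153 and 143 CPM and 192 and 162 CPM.

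**Figure D3:**
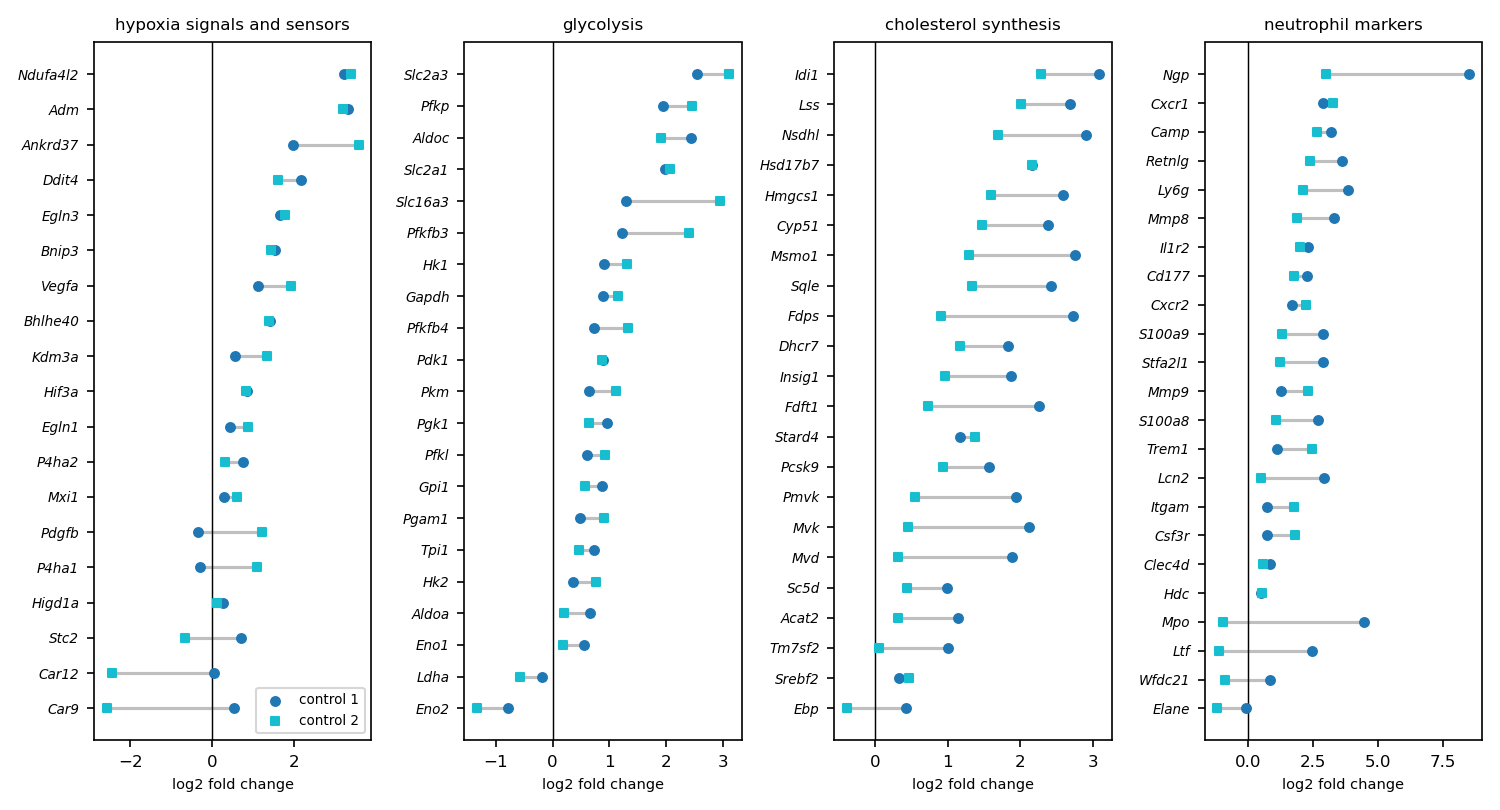
Log2 fold change of tested members of 4 lists, with the Yap1 knockouts over control 1 (circles) and over control 2 (squares); a line joins the values of a gene. In the glycolysis panel 19 of 21 genes lie above 0 for both controls, and in the cholesterol panel the control 1 value is mostly the larger.

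Genes of neutrophils and platelets were higher in both knockouts. Neutrophil markers had a median log2 fold change of 2.47 against control 1 and 1.78 against control 2, and 19 of 23 tested lay above both controls and 0 below. By edgeR 0 markers passed against control 1 (14 higher and 0 lower at an unadjusted p under 0.05, and 10 higher by DESeq2), and 5 were higher against control 2. Retnlg, a resistin-like protein of neutrophils, was found at 7.69 and 17.7 CPM in the controls and 126 and 63.1 CPM in the knockouts. S100a8, a subunit of calprotectin, was at 27.4 and 83.6 CPM and 243 and 116 CPM, and the collagenase Mmp8 at 8.66 and 22.6 CPM and 127 and 45.5 CPM. In all 3 both knockouts were above both controls, knockout 1 was the higher knockout and control 2 the higher control. The granule enzymes Elane and Mpo, made mainly by immature neutrophils, did not follow, at 0.194 and 0.412 CPM in the controls and 0.296 and 0.0692 CPM in the knockouts for Elane and under 3 counts in both knockouts for Mpo. Of 16 tested markers of platelets and megakaryocytes 14 lay above both controls and 1 below, with medians of 2.21 and 1.38 and with 0 edgeR calls against control 1 (12 higher at an unadjusted p under 0.05, and 6 by DESeq2) and 3 against control 2. The platelet tubulin Tubb1 was measured at 0.415 and 0.247 CPM in the controls and 5.86 and 2.63 CPM in the knockouts, and the platelet chemokine Ppbp at 5.59 and 2.18 CPM and 22.4 and 19.3 CPM. Of the erythroid markers 9 of 17 lay above both controls and 1 below, and the globin gene Hbb-bs, whose relative Hbb-bt could share its reads, stood at 71.7 and 126 CPM and 287 and 245 CPM. Knockout 1 weighed on these medians: without it the neutrophil median was 2.09 against control 1 and 1.02 against control 2, and the platelet median 1.47 and 0.885. Blood left in the tissue was not measured, and its part in these 3 lists was not tested.

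Beside the 23.6% above and 20.8% below of all genes, of 20 monocyte and macrophage markers 4 lay above both controls and 7 below, and of 15 Kupffer cell markers 2 and 2. Of 24 sinusoidal endothelial markers 4 lay above and 11 below. Clec4g, a lectin of these cells, had 28.4 and 75.8 CPM in the controls and 8.52 and 9.14 CPM in the knockouts, and Wnt9b, a Wnt ligand they supply to the central zone, at 3.10 and 8.56 CPM and 0.691 and 1.76 CPM. Lyve1, a hyaluronan receptor, had the opposite order, with 81.8 and 73.7 CPM in the controls and 193 and 210.5 CPM in the knockouts. Of 24 stellate cell and fibroblast markers 5 lay above and 8 below. Acta2, the actin of activated stellate cells, was at 74.97 and 72.03 CPM in the controls and 123 and 125 CPM in the knockouts, while Ngfr, a neurotrophin receptor of stellate cells, fell from 10.5 and 4.82 CPM to 2.6003 and 2.21 CPM (log2 fold change -2.12 against control 1, edgeR adjusted p = 0.0396, and -1.03 against control 2, adjusted p = 0.0294).

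The genes that YAP and TEAD are known to switch on were not lower as a group in the livers with less Yap1. Of 25 tested targets 12 lay above both controls and 3 below, beside 23.6% and 20.8% of all genes, and the median log2 fold change was 0.34 against control 1 and 0.74 against control 2. Ajuba (chromosome 14, 54567472 to 54577558, minus strand), a LIM protein that holds LATS kinases in check, was the one target that passed and fell against control 1, and against control 2 it fell with Wwc1 while 10 others rose. Ajuba was found at 32.4 and 26.4 CPM in the controls and 11.4 and 11.1 CPM in the knockouts, with log2 fold changes of -1.52 against control 1 (edgeR adjusted p = 0.0497) and -1.26 against control 2 (adjusted p = 0.0102). Its promoter, printed above, has the letters CATTCC at 186 and 164 bases before the start. That of Nt5e, a target that was higher in the knockouts, has 0 matches, and that of Yap1 has 1. GGAATG on either strand was in 30% of the 20 windows of the targets and in 10.9% of those of all genes tested. The share was 11.2% for genes at least 2-fold above both controls and 15.6% for those at least 2-fold below. The part of these letters in any change was not tested. Wwc1, which encodes the upstream Hippo protein KIBRA, was at 121 and 90.2 CPM in the controls and 62.97 and 53.7 CPM in the knockouts. Amotl2, an angiomotin that binds YAP, was measured at 45.2 and 24.4 CPM in the controls and 25.02 and 19.1 CPM in the knockouts, where the groups overlapped.

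Several targets were higher in the knockouts. Ctgf, the matrix-associated CCN protein whose gene is floxed in the second line, had 96.8 and 50.1 CPM in the controls and 406 and 324 CPM in the knockouts. Its log2 fold change did not pass against either control, at 1.92 against control 1 (edgeR adjusted p = 0.401) and 2.84 against control 2 (adjusted p = 0.0796). Nt5e, the ectonucleotidase CD73, was at 10.1 and 7.49 CPM and 27.2 and 32.2 CPM (log2 fold change 1.55 against control 1, edgeR adjusted p = 0.0688, and 1.96 against control 2, adjusted p = 0.00827), and F3, the tissue factor that starts coagulation, at 4.20 and 4.07 CPM and 9.87 and 8.93 CPM. Ankrd1, a nuclear ankyrin repeat protein, was at 3.73 and 4.49 CPM in the controls and 17.2 and 7.89 CPM in the knockouts, and Cyr61, a relative of Ctgf, at 39.2 and 20.95 CPM and 71.1 and 45.8 CPM. In each of these the knockouts and the controls did not overlap.

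Members of the Hippo pathway itself differed little from control 1. Of 25 genes 11 lay above both controls and 3 below, Yap1 included, and the median log2 fold change was 0.03 against control 1 and 0.92 against control 2. Wwtr1, the gene for the YAP relative TAZ, was found at 52.4 and 34.2 CPM in the controls and 55.6 and 59.04 CPM in the knockouts (log2 fold change 0.13 against control 1, edgeR adjusted p = 0.868, and 0.71 against control 2, adjusted p = 0.111). Among YAP's DNA-binding partners Tead1 was at 81.5 and 24.9 CPM in the controls and 104 and 109 CPM in the knockouts and Tead4 at 1.60 and 1.07 CPM and 2.6003 and 3.84 CPM. The kinase gene Lats1 was at 80.3 and 39.4 CPM and 110.3 and 103 CPM, and Stk4 at 53.98 and 31.1 CPM and 56.4 and 50.2 CPM. In Tead1, Lats1 and Stk4 control 2 was the lowest of the 4 libraries, and in Stk4 control 1 lay between the 2 knockouts. The median longest transcript of the tested pathway genes was 5191 bases, and the levels in control 2 followed transcript length, as described further on. Matrix and cross-linking genes were split between the controls in the same way, with medians of 0.17 and 0.98. Their exception was Tgm2, transglutaminase 2, which rose against each control, from 495 and 429 CPM to 1980.4 and 2114 CPM (log2 fold change 2.05 against control 1, edgeR adjusted p = 0.0396, and 2.23 against control 2, adjusted p = 0.00689), and Lox, the lysyl oxidase, stood at 17.8 and 12.2 CPM and 47.9 and 52.3 CPM.

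Of 23 immediate early genes, which cells switch on within minutes of a stimulus, 13 lay above both controls and 0 below, beside 23.6% and 20.8% of all genes. Their median log2 fold change was 0.67 against control 1 and 0.67 against control 2. Btg2, an antiproliferative gene of this class, was measured at 48.3 and 48.4 CPM in the controls and 182 and 153 CPM in the knockouts (log2 fold change 1.79 against control 1, edgeR adjusted p = 0.0554, and 1.76 against control 2, adjusted p = 0.00860), and the stress gene Ier3 at 31.6 and 32.6 CPM and 72.4 and 108 CPM. Of 30 growth factors and receptors 15 lay above both controls and 0 below, with medians of 0.63 against control 1 and 0.67 against control 2. Btc, the EGF receptor ligand betacellulin, was at 2.88 and 4.03 CPM in the controls and 13.6 and 26.5 CPM in the knockouts. It was at 34.5 to 42.04 CPM in the Ctgf line, above all 4 Yap-line libraries. Hbegf, another ligand of that receptor, was at 4.54 and 2.92 CPM and 11.03 and 10.8 CPM, and Inhbb, an activin subunit, at 62.8 and 50.8 CPM and 127 and 127 CPM. Hgf, the hepatocyte growth factor, was at 94.9 and 10.3 CPM in the controls and 52.99 and 74.4 CPM in the knockouts, so the 2 controls lay on either side of the knockouts.

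Of 25 DNA replication genes 0 lay above both controls and 13 below, and of 25 mitosis genes 0 above and 7 below, the latter a share near the 20.8% of all genes. The median log2 fold change of the replication list was -0.46 against control 1 and -0.20 against control 2. With the trend by transcript length, described further on, removed, it was -0.05 against control 2. Mcm10, a DNA replication factor, had 13.9 and 8.89 CPM in the controls and 5.60 and 5.61 CPM in the knockouts. The transcription factor E2f1 was at 8.38 and 7.66 CPM and 3.65 and 4.84 CPM. The median of the mitosis list was -1.04 against control 1 and -0.11 against control 2, and by edgeR 0 of its genes passed against either control (0 higher and 10 lower at an unadjusted p under 0.05 against control 1, and 0 by DESeq2). Without knockout 1 the mitosis medians were -0.61 and 0.19, and without knockout 2 -1.45 and -0.46, so their size and, against control 2, their sign turned on 1 library. The proliferation marker Mki67 shows the gap between the controls, at 36.8 and 11.4 CPM, with the knockouts between them at 13.5 and 20.4 CPM. Birc5, the survivin gene, was below both controls, at 4.42 and 3.46 CPM and 1.55 and 2.53 CPM, and the Ctgf line held 0.284 to 0.382 CPM.

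In the hepatocyte lists the values differed with the control used. Pericentral genes had a median log2 fold change of -0.13 against control 1, with 0 edgeR calls (3 higher and 7 lower at an unadjusted p under 0.05, and 1 and 3 by DESeq2), and of -1.66 against control 2, with 16 of 25 lower. Summed over the pericentral genes, control 1 had 1033 CPM and the knockouts 982 and 1019 CPM. Control 2 had 2783 CPM and the Ctgf line 2162 to 2657 CPM, so control 2 was nearer to that line than control 1. Cyp2e1, the P450 enzyme that activates CCl4, was found at 58.8 and 394 CPM in the controls and 115 and 180.2 CPM in the knockouts, so that it was above control 1 and below control 2. Fatty acid oxidation had medians of -0.04 and -1.20, with 0 edgeR calls against control 1 (2 higher and 3 lower at an unadjusted p under 0.05, and 2 and 2 by DESeq2) and 19 of 25 lower against control 2. Cytochrome P450 and conjugation genes had medians of 0.37 and -1.03 and acute phase proteins 1.24 and -0.15. The last value had no stable sign: it was 0.36 with the trend by transcript length, described further on, removed, and -0.29 to 0.26 with 1 library left out. Of 24 acute phase genes 0 passed by edgeR against control 1, where 15 were higher by DESeq2, and 1 was higher and 1 lower against control 2. Saa1, an acute phase protein of hepatocytes, was at 396 and 2423 CPM in the controls and 1721 and 630.3 CPM in the knockouts, which also differed from each other. P450 and conjugation genes summed to 1949 and 4474 CPM in the controls, with 3006 to 4526 CPM in the Ctgf line. Fatty acid oxidation genes summed to 6151 and 15479 CPM, with 5668 to 6950 CPM in that line, so there control 1 was nearer.

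Some members of these lists were lower than both controls. Of the 25 pericentral genes 14 lay below both controls and 0 above, beside 20.8% and 23.6% of all genes. Lgr5, the R-spondin receptor of cells next to the central vein, was measured at 2.41 and 5.80 CPM in the controls and 0.658 and 0.173 CPM in the knockouts, and Cyp1a2, a P450 of that zone, at 15.2 and 26.6 CPM and 5.56 and 3.36 CPM. Rnf43, a Wnt target that removes Wnt receptors, was at 20.7 and 15.6 CPM in the controls and 7.77 and 8.89 CPM in the knockouts, and Aldh1a1, a retinal dehydrogenase, at 141 and 263 CPM and 51.8 and 70.6 CPM. Glul, the glutamine synthetase that marks the innermost cells, did not follow, at 75.7 and 119 CPM in the controls and 100.5 and 138 CPM in the knockouts. Of the 20 periportal genes 6 lay above both controls and 2 below (30% and 10%), the former a share near the 23.6% of all genes. Cps1 and Arg1, the first and the last enzyme of the urea cycle, were higher in the knockouts than in both controls. Cps1 had 1145 and 1059 CPM in the controls and 2364 and 2408 CPM in the knockouts, and Arg1 1299 and 1286 CPM and 2406 and 3474 CPM. Of the 24 listed genes of the urea cycle and amino acid breakdown, 9 lay above both controls and 4 below. The median log2 fold change of that list was 0.63 against control 1 and -0.0015 against control 2. The receptor Pigr, which carries antibodies into bile, was one of the periportal genes below both controls, at 228 and 294 CPM and 101 and 86.1 CPM. Among liver transcription factors, Nr1i3, the xenobiotic receptor CAR, was at 64.3 and 262 CPM in the controls and 37.5 and 43.1 CPM in the knockouts and Cebpa at 169.7 and 189 CPM and 108 and 75.5 CPM. The heme oxygenase Hmox1, which the NRF2 list holds, was at 135 and 113 CPM and 501 and 450.3 CPM, while Osgin1 of the same list was at 116 and 169.9 CPM and 48.2 and 55.4 CPM.

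**Figure D4:**
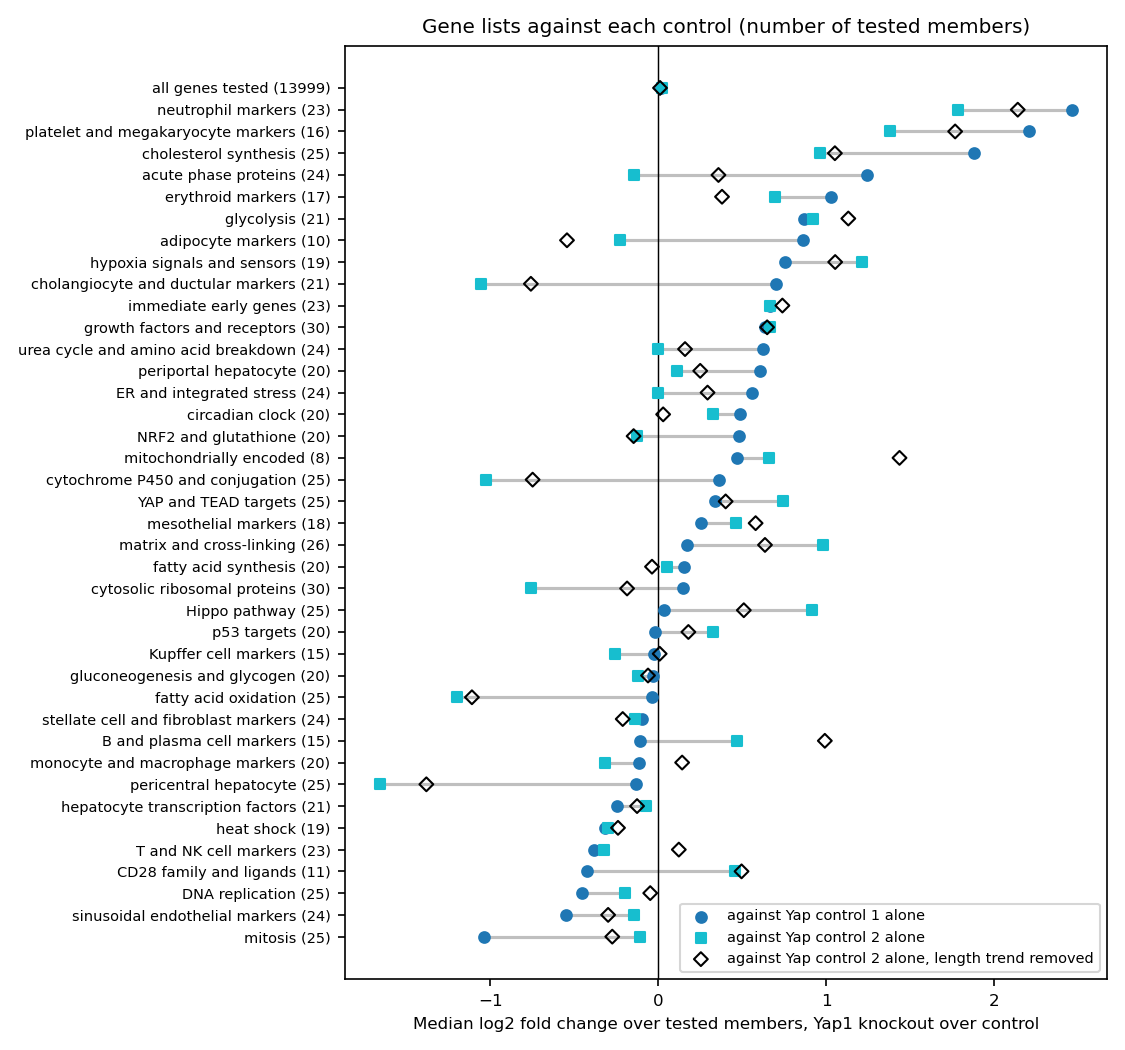
Median log2 fold change of each gene list other than the pancreas lists, and of all genes tested, Yap1 knockout over control 1 (circles), over control 2 (squares) and over control 2 after removal of the transcript length trend (open diamonds); the number of tested members is in brackets. Neutrophil, platelet, cholesterol and glycolysis lists lie right of 0 for both controls, and pericentral and fatty acid oxidation lists lie far left of 0 for control 2 and near 0 for control 1.

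The levels in control 2 also followed transcript length. Genes were split into 5 classes of like size by their longest transcript, from 255 to 1964 bases in the first to 5232 to 123179 bases in the last. The median log2 ratio of control 2 to control 1 was 0.49 in the class of shortest transcripts, 0.20, -0.04 and -0.26 in the next 3 and -0.65 in the class of longest, whereas knockout 2 over knockout 1 went from 0.05 to -0.06. Against control 1 the knockouts had medians of 0.04 in the shortest and 0.00 in the longest class, and against control 2 of -0.56 and 0.65. Of the longest class 35.3% were called higher against control 2 and 2.43% lower, and of the shortest 2.03% higher and 28.5% lower. With the trend removed from each library, an alternative added once the data had been seen, the calls against control 2 were 728 higher (5.04%) and 1136 lower (7.86%). Ribosomal protein genes, which are short, had medians of 0.15 against control 1 and -0.76 against control 2, and -0.19 against control 2 with the trend removed. The pericentral median against control 2 was then -1.38 and that of fatty acid oxidation -1.11. The Hippo pathway went from 0.92 to 0.51, the matrix list from 0.98 to 0.64 and the YAP and TEAD targets from 0.74 to 0.40, so these medians came nearer to those against control 1 without reaching them. The mitosis median against control 2 went from -0.11 to -0.27.

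**Figure D5:**
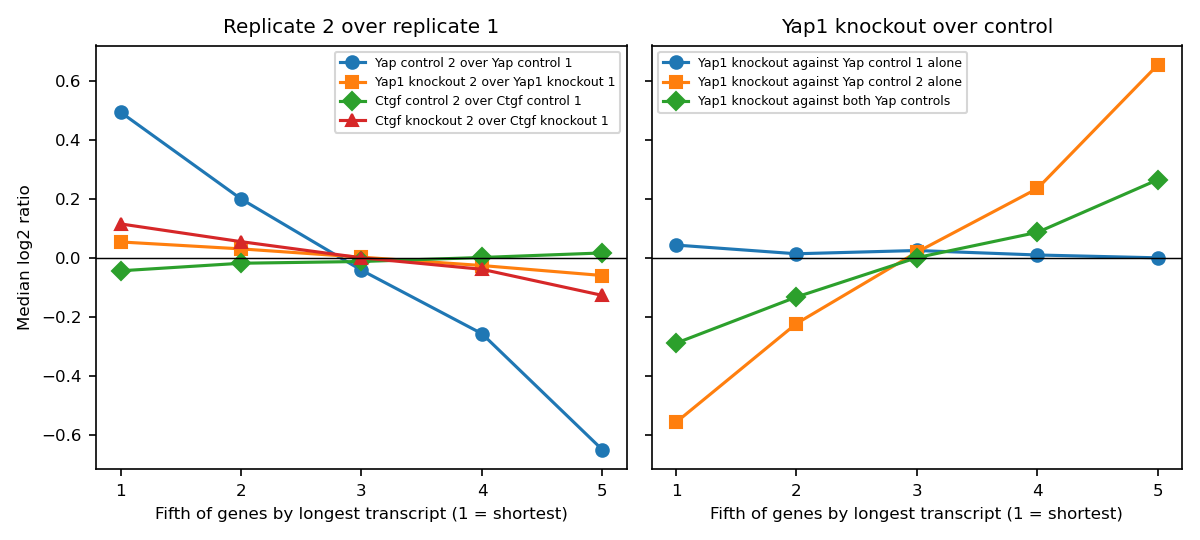
Median log2 ratio in 5 classes of genes by longest transcript, for replicate 2 over replicate 1 of each group (left) and for the Yap1 knockouts over each control (right); each point is a median over 2755 to 2759 genes. Control 2 over control 1 falls from 0.49 to -0.65, and the knockouts over control 2 go from -0.56 to 0.65, while the knockouts over control 1 stay near 0.

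Genes called against 1 control were chosen for a small or opposite change against the other, so that they separate the 2 controls follows from the choice. Against control 2 alone, Adamts12, a matrix protease, stood at 0.288 CPM in that control and at 8.99, 11.1 and 11.9 CPM in control 1 and the knockouts. The copper transporter gene Atp7a, at 2.31 CPM in control 2 against 19.7, 26.99 and 21.1 CPM, and the aminopeptidase gene Lnpep, at 6.63 CPM against 53.9, 69.6 and 59.4 CPM, had the same pattern, as had Uprt and Zfp871. In the other direction Dmbt1, a mucosal scavenger receptor that the pancreas also makes, stood at 2367 CPM in control 2 and at 0.442, 1.32 and 0.173 CPM in the other 3. Erp27, an endoplasmic reticulum protein abundant in pancreas, was at 22.6 CPM in control 2 and 0.0553 CPM in control 1, and the antimicrobial lectins Reg3b and Reg3g, at 2552 and 773 CPM in control 2, and Lypd8 were of this kind as well. Reg3b was also at 34.7 CPM in knockout 1 and at 0.415 CPM in knockout 2.

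Against control 1 alone, Akr1b7, an aldose reductase relative, stood at 0.498 CPM in that control and at 5.10, 4.94 and 5.36 CPM in control 2 and the knockouts. The coenzyme Q kinase Coq8b, at 37.5 CPM in control 1 against 86.7, 114 and 135 CPM, A2ml1 and Usp30 were likewise lowest in control 1. Irs1, the insulin receptor substrate, stood at 38.8 CPM in control 1 and at 13.5, 16.9 and 14.9 CPM in the other 3, and the inositol transporter Slc5a3 and Gprin3 were also highest there. Other genes called against control 1 separated the knockouts from both controls; those that follow were chosen after their values were seen. Selenbp1, a selenium-binding protein with methanethiol oxidase activity, was found at 20.5 and 31.2 CPM in the controls and 119.6 and 104 CPM in the knockouts, and Hilpda, a lipid droplet protein induced by hypoxia, at 12.00 and 40.7 CPM and 58.5 and 73.1 CPM. Bmper, a secreted regulator of BMP signals, was at 11.5 and 19.4 CPM in the controls and 46.7 and 52.3 CPM in the knockouts, and the bile acid carrier family gene Slc10a6 at 1.52 and 4.45 CPM and 11.7 and 15.02 CPM. Lower in the knockouts were Paqr7, a progestin receptor, at 49.1 and 36.5 CPM and 12.01 and 9.45 CPM, the planar polarity cadherin Celsr1, at 31.5 and 15.02 CPM and 10.1 and 10.3 CPM, and the olfactory receptor chaperone family gene Rtp3, at 45.5 and 31.2 CPM and 11.1 and 9.72 CPM. In all of these the 2 knockouts lay on 1 side of both controls.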

How the data were processed

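RNA from flash-frozen liver was sequenced in 8 libraries. The labels' protocols name 2 kits, Illumina TruSeq and KAPA mRNA HyperPrep, without saying which library was made with which. The deposited table holds whole-number read counts per gene symbol, over 22155 genes, 4534 of them at 0 in every library, and 0 columns were unused. The submitters' processing notes name HTSeq 0.6.1, STAR 2.6.0a, bcl2fastq 2.20.0.422 and the build mm10/GRCm38. No annotation, strand setting or read filter is stated in the sources used here, so antisense, overlapping and near-identical genes are uncertain.

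From these counts, edgeR 4.0.16 (R 4.3.3) gave the quasi-likelihood F test, with TMM scaling, the filterByExpr filter and Benjamini-Hochberg adjustment over all genes tested, at a threshold of 0.05. All 8 libraries entered 1 fit of 4 groups (4 residual degrees of freedom, biological coefficient of variation 27.2%), and each single control had a fit of 7 libraries (3 residual degrees of freedom, 19.5% and 19.6%). Each SE was derived as the log2 fold change over the root of F. The deviations of same-numbered replicates were hardly correlated (Pearson r 0.0716), which cannot decide whether they were paired. The replicates of each group differed by more than sampling noise. The fits were tested on simulated counts in which all libraries had the same gene levels apart from changes set in the knockouts. No simulated library had pancreas transcripts or a length trend of its own, so that test does not cover these features of control 2. DESeq2 1.42.0, RLE scaling, no filter, the Yap-line libraries alone, removal of pancreas genes, a replicate block (3, 2 and 2 residual degrees of freedom) and leaving out 1 library at a time were alternatives.

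The groups, comparisons, 41 gene lists (870 genes, 851 in the table) and the rule for naming genes were chosen with earlier results of these data known. Named were Yap1, genes past the threshold against both controls, up to 12 genes a direction ranked by the smallest of the 4 knockout-to-control ratios (each at least 2-fold, at least 5 CPM in a group), up to 5 genes a direction called against 1 control with a log2 change under 0.5 or opposite against the other, and the 3 list members with the smallest p. Not every gene so chosen is described, some are not reported here or drawn in the figures, and the pancreas genes among them are mostly given as a sum. Other members of the lists are given as values to describe a list. Positions come from GENCODE on GRCm38 by symbol (21712 matched), and lengths are those of the longest transcript (13784 genes). Promoters are RefSeq's. Reads carry no molecular identifiers, so the floor of 3 counts covers counting error only.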

Additional observations from a re-analysis of the deposited data

How the results depend on the processing

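The counts of called genes depended on the test and on the libraries in the fit. Against both controls, 3 genes were higher and 1 lower. DESeq2 gave 271 and 243, the fit of unfiltered genes 24 and 13, the fit of the Yap-line libraries alone 0 and 0 (601 and 637 at an unadjusted p under 0.05), and the fit with the transcript length trend removed, chosen after the data were seen, 35 and 17. Leaving out 1 library at a time gave 0 to 1788 higher and 0 to 1940 lower, the highest without Yap control 1. With the replicate block there were 2 higher and 1 lower against both controls, and, added after the data were seen, 0 and 0 against control 1 alone (911 and 870 at an unadjusted p under 0.05) and 1106 and 1029 against control 2 alone. The deviations of same-numbered libraries were hardly correlated (r of 0.0716 in the Yap line and 0.0678 in the Ctgf line). The sample titles name each Yap control as the control for a numbered Yap1 knockout, so a matching is possible. With so few libraries the correlation cannot decide whether they were paired. Against control 1 alone, 22 higher and 18 lower became 401 and 239 with DESeq2, 68 and 42 without a filter and 240 and 167 with only the Yap-line libraries. With the length trend removed they were 37 and 26, and leaving out 1 library gave 0 to 530 and 0 to 408. Against control 2 alone, 1788 higher and 1940 lower became 728 and 1136 with the length trend removed, and leaving out 1 library gave 23 to 3181 and 48 to 3218. Genes at least 2-fold outside both controls were 211 and 149, and 372 and 329 without a filter. Of the chosen genes other than those picked for a call against 1 control, 9 changed sign against both controls, none of them past the threshold in the fit with all libraries, and all 9 were higher in the knockouts without control 2. The leave-one-out log2 fold changes spanned -1.13 to 0.0137 for Rpl13, -2.41 to 0.0773 for Vtcn1, -10.13 to 0.28 for Ctrl, -6.84 to 1.20 for Cela1, -17.91 to 7.21 for Reg1, -1.05 to 1.64 for Scg2, -1.42 to 6.58 for Pcsk2, -3.60 to 0.93 for Krt19 and -5.47 to 0.79 for Cfd. Pcsk2 was also at 0.54 with the replicate block. Genes picked for a call against 1 control were recomputed against that control, where 0 reversed; against both controls their sign can turn with the control left out, as their choice allows. Among the other chosen genes' values against both controls under these alternatives, 1769 kept direction and side of the threshold, 227 newly passed it, 23 no longer passed and 12 reversed. RLE scaling and removal of the pancreas genes left each count of called genes within 1.5 times. The cause of these shifts was not tested. With 2 libraries a group, small changes at low counts were not detectable.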

Other observations

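Over all genes tested, 23.6% lay above both controls and 20.8% below, and the counts of this section stand beside those shares. Of 8 tested genes encoded in mitochondrial DNA, 5 lay above both controls and 0 below, with a median log2 fold change of 0.47 against control 1 and 0.66 against control 2 (1.44 with the transcript length trend removed), and mt-Co1, a subunit of cytochrome oxidase, had levels of 5285 and 3977 CPM in the controls and 8518 and 11679 CPM in the knockouts. Among 20 clock genes 6 lay above and 4 below, near the shares of all genes, and the clock repressor Bhlhe40, which is also in the hypoxia list, was measured at 119 and 118 CPM in the controls and 311 and 323 CPM in the knockouts. Of 19 heat shock genes 0 lay above and 7 below, with the co-chaperone Dnajb1 at 64.02 and 70.5 CPM and 48.7 and 39.3 CPM. Of 20 p53 targets 7 lay above and 6 below, with Trp53inp1, an inducer of autophagy, at 599 and 444 CPM and 1038 and 1209.5 CPM and the death receptor Fas at 14.4 and 22.1 CPM and 11.9 and 7.44 CPM. Of 24 genes of ER and integrated stress 11 lay above and 3 below. Of 21 cholangiocyte and ductular markers 6 lay above and 1 below, with medians of 0.70 against control 1 and -1.05 against control 2, the control with pancreas transcripts. The epithelial claudin Cldn4 had 0.138 and 0.782 CPM in the controls and 2.01 and 4.74 CPM in the knockouts. The ductular regulator Sox9 was at 45.8 and 56.6 CPM in the controls and 93.5 and 80.6 CPM in the knockouts, and at 113 to 145 CPM in the Ctgf line, above all 4 Yap-line libraries.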
